A study of Mus musculus with 16 samples.

Results

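The genes described here are 9 genes that mouse leukocytes express, though not all of them in every kind of leukocyte. They are the pan-leukocyte genes Ptprc, Laptm5, Cd53, Coro1a and Lcp1 and the beta2 integrin genes Itgb2, Itgam, Itgax and Itgal. They were chosen by symbol as a gauge of immune content per tumour, with no threshold on a measured value but with earlier results of these data known. All 9 of 9 symbols were found once among the 16094 genes of the expression table. All 9 also passed the filter of a mean normalised count of at least 5, which 14672 genes passed.

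The study profiled 16 tumours of B16R2L, a line of mouse melanoma cells implanted into mice, in 4 groups of 4. The shMdk anti-PD1 and shMdk IgG2a tumours came from cells with a short hairpin RNA against Mdk, which encodes the heparin-binding growth factor midkine. The shCtrl anti-PD1 and shCtrl IgG2a tumours came from cells with a non-targeting hairpin. From a volume of 100 mm3, mice received anti-PD1 (clone RMP1-14, 10 mg/kg per the labels), which blocks a checkpoint receptor of T cells, or an IgG2a control antibody, on 2 days of each of 2 weeks. Each line carries 1 hairpin, so the loss of Mdk and any other difference between the lines cannot be told apart. The comparisons below ask how far leukocyte gene expression per tumour went with the hairpin, with the antibody and with both. They share tumours with one another, so they are not independent.

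CD45, the product of Ptprc, is a receptor tyrosine phosphatase on the surface of nucleated blood cells, where it acts on the inhibitory tyrosine of Src family kinases. The beta2 integrins are pairs of the common beta chain CD18 (Itgb2) with an alpha chain. CD11a (Itgal) gives LFA-1, CD11b (Itgam) gives the complement receptor Mac-1 of myeloid cells, and CD11c (Itgax) gives the receptor typical of dendritic cells and of many tissue macrophages. These pairs bind ICAM proteins and complement fragments once talin and kindlin-3 have switched them on. Because leukocytes carry these proteins and melanoma cells mostly do not, their transcripts are often read as a measure of immune infiltrate. In bulk RNA, however, more leukocytes in a tumour and more transcript per leukocyte cannot be told apart.

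Libraries held 5686405 to 8886334 reads per tumour, and reads were taken at the 3′ ends of transcripts, so a value does not scale with gene length. Mdk itself averaged 211 ± 106 normalised counts in shMdk anti-PD1 and 199 ± 89.3 in shMdk IgG2a tumours, against 873 ± 206 in shCtrl anti-PD1 and 862 ± 248 in shCtrl IgG2a tumours (SD, n = 4 each), and no shMdk tumour overlapped a shCtrl tumour. Libraries did not all behave alike. In 2 of them, shMdk IgG2a tumour 1 and shCtrl anti-PD1 tumour 2, the ribosomal-RNA-overlapping gene model Gm42418 took 3.17% and 4.47% of reads, against 0.880% to 1.56% in the other libraries. In 5 of them, shMdk anti-PD1 tumour 1, shMdk IgG2a tumours 3 and 4 and shCtrl IgG2a tumours 1 and 2, genes with a GC-rich 3′ end read higher, by 0.0864 to 0.173 log2 units per 10% of GC, while this slope ran from -0.105 to -0.00634 in the others. For the genes described here and for ratios between them, calls that change without these libraries are given with both values. The other genes named below are given from all tumours only. Whether their calls hold without these libraries is not reported.

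Of the 9 genes, 4 lie on chromosome 7 (all positions are in GRCm38, with GENCODE M21 gene bounds). Coro1a spans chr7:126699773-126707787 on the minus strand, and the alpha chain genes follow on the plus strand, Itgal at chr7:127296260-127335138, Itgam at chr7:128062640-128118491 and Itgax at chr7:128129547-128150657. The end of Itgam and the start of Itgax are 11055 bp apart. The others are scattered: Ptprc at chr1:138062861-138175708 and Cd53 at chr3:106759921-106790149, both on the minus strand, and Laptm5 at chr4:130913125-130936141, Itgb2 at chr10:77530252-77565708 and Lcp1 at chr14:75131101-75230842, all on the plus strand. The gene model Gm49368 overlaps the 3′ end of Itgam on the same strand, and A130071D04Rik overlaps Ptprc on the same strand, so reads in the shared stretches could be split between them. Bola2 overlaps the 3′ end of Coro1a on the other strand, which the strand-specific counting given in the labels keeps apart.

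Sequences upstream of a transcription start of 6 of the genes are printed because the levels of these genes are compared below. Ptprc, Laptm5, Cd53, Itgam and Itgax differed several-fold between the lines and Lcp1 differed less. Each is the 150 bases before a transcription start in RefSeq (build GRCm38.p6), written along the gene's own strand. RefSeq starts and GENCODE gene bounds differ. The stretches of Ptprc and Laptm5 lie inside the gene bounds given above, and those of Itgax and Lcp1 reach into them. Capitals mark the letters GAGGAA or TTCCTC, a form of the site bound by PU.1, a transcription factor of myeloid and B cells. They also mark GGGCGG or CCGCCC, the GC box bound by Sp1 family factors. Other forms of the PU.1 site were neither marked nor counted.
Ptprc, chr1:138175306-138175455, minus strand: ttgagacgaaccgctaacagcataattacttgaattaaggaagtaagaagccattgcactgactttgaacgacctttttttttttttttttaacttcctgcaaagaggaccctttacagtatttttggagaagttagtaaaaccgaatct
Laptm5, chr4:130913166-130913315, plus strand: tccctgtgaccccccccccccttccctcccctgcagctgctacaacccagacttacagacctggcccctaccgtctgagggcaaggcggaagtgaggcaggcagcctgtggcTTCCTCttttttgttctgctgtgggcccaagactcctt
Cd53, chr3:106790150-106790299, minus strand: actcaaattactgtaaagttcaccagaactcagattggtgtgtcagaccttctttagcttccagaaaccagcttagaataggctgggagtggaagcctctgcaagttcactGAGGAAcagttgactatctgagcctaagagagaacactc
Itgam, chr7:128062490-128062639, plus strand: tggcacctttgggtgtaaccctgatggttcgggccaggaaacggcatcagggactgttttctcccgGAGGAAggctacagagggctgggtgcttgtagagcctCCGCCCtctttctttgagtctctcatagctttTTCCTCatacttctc
Itgax, chr7:128129400-128129549, plus strand: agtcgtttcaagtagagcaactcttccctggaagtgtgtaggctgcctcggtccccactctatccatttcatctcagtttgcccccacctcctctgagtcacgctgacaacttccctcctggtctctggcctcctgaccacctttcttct
Lcp1, chr14:75130973-75131122, plus strand: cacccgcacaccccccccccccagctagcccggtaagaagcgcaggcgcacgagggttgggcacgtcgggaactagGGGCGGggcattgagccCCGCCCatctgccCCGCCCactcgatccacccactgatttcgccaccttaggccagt

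The sequence table matched 7 of the 9 genes by symbol, with 10 starts in all. GAGGAA on either strand was found at 3 of the 10 starts, at 39 bases before the start of Cd53 (-39), at -38 in Laptm5 and at -84 and -15 in Itgam, in Itgam once on each strand. The same letters occur in 14.5% of the 32851 promoters of that length in the table. GGGCGG on either strand was found at 2 of the 10 starts, once in Itgam and 3 times (-74, -57 and -44) upstream of the first start of Lcp1, and it occurs in 28.6% of all promoters. The letters TATAAA or TTTATA were found at 0 of the 10 starts and occur in 7.57% of all promoters. The stretch upstream of Ptprc had 34.7% GC and that of Lcp1 69.3%, with a median of 54% over all promoters. There were 0 overlaps between matches, and these matches are descriptions of the printed letters only.

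Ptprc, Laptm5 and Cd53, the membrane proteins common to most leukocytes, were all higher in shMdk than in shCtrl tumours under either antibody, by 4.97-fold to 7.37-fold. Ptprc had 266, 292, 142 and 128 normalised counts in shMdk anti-PD1 tumours 1 to 4 and 177, 87.3, 118 and 126 in shMdk IgG2a tumours. The shCtrl anti-PD1 tumours had 22.99, 12.01, 52.1 and 53.9 and the shCtrl IgG2a tumours 34.9, 27.7, 6.66 and 9.23. The lowest of the 8 shMdk tumours (87.3) lay above the highest of the 8 shCtrl tumours (53.9), and within shCtrl the values ran over a wide range, with tumours 3 and 4 of the IgG2a group lowest. The log2 fold change of Ptprc was 2.88 ± 0.51 (adjusted p = 0.00614) under IgG2a and 2.66 ± 0.51 (adjusted p = 0.00445) under anti-PD1 (limma, Benjamini-Hochberg over all genes tested, as for every adjusted p of a fold change here; errors are standard errors of the fit).

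Laptm5 encodes a lysosomal membrane protein that takes part in the turnover of antigen receptors. It had 754, 742, 349 and 430.0 normalised counts in shMdk anti-PD1 tumours 1 to 4 and 444, 178, 281 and 443 in shMdk IgG2a tumours. Its values were 80.01, 45.04, 122 and 153 in shCtrl anti-PD1 tumours and 102, 115, 32.3 and 39.7 in shCtrl IgG2a tumours. As for Ptprc, no shMdk tumour overlapped a shCtrl tumour, and the tumours kept nearly the same order. Its log2 fold change was 2.31 ± 0.45 (adjusted p = 0.0102) under IgG2a and 2.56 ± 0.45 (adjusted p = 0.00235) under anti-PD1.

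Cd53, a tetraspanin of leukocytes that organises surface receptors into membrane domains, had 179.7, 208, 201 and 230.2 normalised counts in shMdk anti-PD1 tumours 1 to 4 and 101, 50.9, 83.4 and 72.5 in shMdk IgG2a tumours. The shCtrl anti-PD1 tumours had 34.03, 18.01, 48.3 and 77.3 and the shCtrl IgG2a tumours 12.4, 12.8, 13.3 and 18.5. By their means the 4 groups fell in the order shMdk anti-PD1, shMdk IgG2a, shCtrl anti-PD1, shCtrl IgG2a, with overlap between the middle pair and, by 1 tumour, between the last pair. The hairpin effect was 2.33 ± 0.34 (adjusted p = 0.00208) log2 units under IgG2a and 2.35 ± 0.34 (adjusted p = 0.000792) under anti-PD1.

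**Figure D1:**
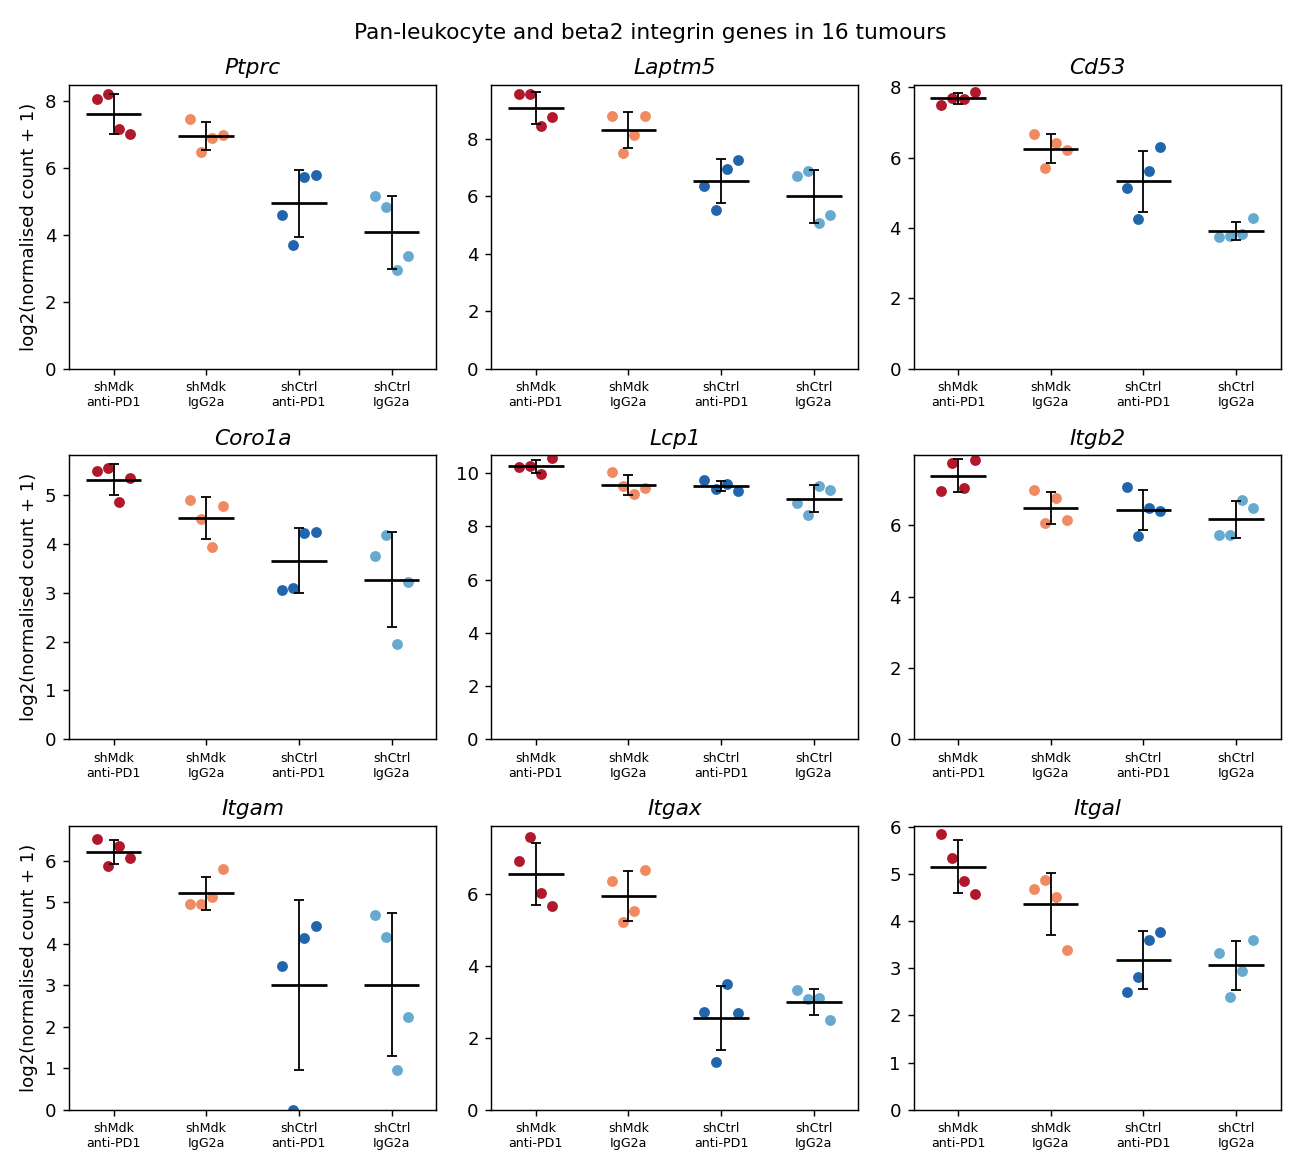
Normalised count of each of the 9 genes in each of 16 tumours, as log2(normalised count + 1) on the vertical axis, with the 4 groups along the horizontal axis; points are tumours, long lines are group means and bars are the standard deviation over 4 tumours. Ptprc, Laptm5, Itgam and Itgax show no overlap between the 8 shMdk and the 8 shCtrl tumours, while Lcp1 and Itgb2 overlap widely.

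The 3 integrin alpha chain genes among the 9 were all higher in shMdk than in shCtrl tumours under anti-PD1, and only Itgax also passed under IgG2a. Itgax (CD11c) had the highest fold change of the 9 genes, with 119, 189, 63.6 and 49.9 normalised counts in shMdk anti-PD1 tumours 1 to 4 and 81.2, 36.4, 44.6 and 101 in shMdk IgG2a tumours. Its values were 5.52, 1.501, 10.2 and 5.39 in shCtrl anti-PD1 tumours and 9.01, 7.46, 7.61 and 4.62 in shCtrl IgG2a tumours. Every shMdk tumour held at least 36.4 and every shCtrl tumour at most 10.2 normalised counts. Only 52 reads of Itgax were recovered over the 8 shCtrl tumours, against 706 over the 8 shMdk tumours, so the shCtrl values carry a large counting error. The log2 fold change was 2.94 ± 0.48 (adjusted p = 0.00428) under IgG2a and 3.99 ± 0.48 (adjusted p = 0.000259) under anti-PD1.

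Itgam (CD11b), the alpha chain of Mac-1 on macrophages, monocytes and granulocytes, had 90.3, 57.8, 81.4 and 66.02 normalised counts in shMdk anti-PD1 tumours 1 to 4 and 30.04, 30.01, 34.1 and 54.7 in shMdk IgG2a tumours. Its values were 10.1, 0, 16.7 and 20.7 in shCtrl anti-PD1 tumours and 24.8, 17.1, 0.951 and 3.69 in shCtrl IgG2a tumours. The 2 lines did not overlap, with a lowest shMdk value of 30.01 and a highest shCtrl value of 24.8. In shCtrl anti-PD1 tumour 2 it had 0 of 5686405 reads, which allows up to 4.50 normalised counts (3 reads, counting error only). Its log2 fold change was 3.19 ± 0.84 (adjusted p = 0.0304) under anti-PD1 and passed the threshold there, but with the widest standard error of the 9 genes, and the call held in 2 of 8 fits that left out 1 tumour of the 2 groups, those without shCtrl tumour 3 or 4 (adjusted p = 0.0249 to 0.0941 over the 8). Without shCtrl tumour 2 the fold change was 2.18, and with no variance trend the adjusted p was 0.0501. Under IgG2a the fold change of 2.20 ± 0.84 did not pass (adjusted p = 0.316), although the groups did not overlap there either.

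Itgal (CD11a), the alpha chain of LFA-1 on lymphocytes and most other leukocytes, had 56.3, 39.2, 27.97 and 22.9 normalised counts in shMdk anti-PD1 tumours 1 to 4 and 24.5, 28.2, 21.8 and 9.46 in shMdk IgG2a tumours. The shCtrl anti-PD1 tumours had 4.598, 6.005, 11.2 and 12.6 and the shCtrl IgG2a tumours 9.01, 4.26, 6.66 and 11.1. The lines overlapped through shMdk IgG2a tumour 4 (9.46), which lay below 3 of the 8 shCtrl tumours. The log2 fold change was 1.99 ± 0.43 (adjusted p = 0.00941) under anti-PD1, which passed, and 1.30 ± 0.43 (adjusted p = 0.200) under IgG2a, which did not.

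Itgb2, whose product CD18 pairs with each of these alpha chains, had 123, 215, 131 and 225 normalised counts in shMdk anti-PD1 tumours 1 to 4 and 126, 65.5, 108 and 70.4 in shMdk IgG2a tumours. Its values were 135, 51.04, 89.3 and 84.5 in shCtrl anti-PD1 tumours and 51.8, 52.2, 104 and 89.5 in shCtrl IgG2a tumours. The groups overlapped in both arms. Of the 3 shCtrl tumours with the least Ptprc, anti-PD1 tumour 2 had the lowest Itgb2 of the line (51.04), while IgG2a tumours 3 and 4 had 104 and 89.5. The fold change was 0.33 ± 0.33 (adjusted p = 0.883) under IgG2a and 0.97 ± 0.33 (adjusted p = 0.0989) under anti-PD1, and neither passed. Averaged over both antibodies it was 0.65 ± 0.23 (adjusted p = 0.101), with 8 tumours a side, so Itgb2 was the only 1 of the 9 genes not called in that comparison.

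Coro1a and Lcp1 encode actin regulators. Coronin 1A, which T cells need for survival and which phagocytes recruit to phagosomes, had 43.7, 46.03, 27.97 and 39.8 normalised counts in shMdk anti-PD1 tumours 1 to 4 and 28.9, 21.8, 14.2 and 26.3 in shMdk IgG2a tumours. Its values were 7.36, 7.51, 17.7 and 17.97 in shCtrl anti-PD1 tumours and 12.4, 17.1, 2.85 and 8.31 in shCtrl IgG2a tumours. The groups did not overlap under anti-PD1 and overlapped under IgG2a, where shMdk tumour 3 (14.2) lay below shCtrl tumour 2 (17.1). The log2 fold change of Coro1a was 1.66 ± 0.45 (adjusted p = 0.0346) under anti-PD1, a call that held in 3 of 8 fits without 1 tumour, those without shMdk tumour 3 or shCtrl tumour 3 or 4 (adjusted p = 0.0359 to 0.108 over the 8), and 1.26 ± 0.45 (adjusted p = 0.257) under IgG2a.

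Lcp1 encodes L-plastin, which bundles actin filaments in leukocytes and is also made by many cancer cells; which cells gave its reads in these tumours was not tested. It was the most abundant of the 9, with 1203, 1229.9, 1009 and 1510.0 normalised counts in shMdk anti-PD1 tumours 1 to 4 and 1066, 730.3, 589.6 and 700.1 in shMdk IgG2a tumours. The shCtrl anti-PD1 tumours had 855, 676, 769.8 and 643 and the shCtrl IgG2a tumours 467, 341, 731 and 663. Under anti-PD1 all shMdk tumours lay above all shCtrl tumours, with 0.74 ± 0.22 log2 units between the means, but this did not pass (adjusted p = 0.0593). It passed with only these 2 groups in the fit (adjusted p = 0.0140), with DESeq2 (0.0224) and without the libraries with a positive GC slope (0.0278). Under IgG2a the groups overlapped and the difference was 0.51 ± 0.22 (adjusted p = 0.440). Averaged over both antibodies Lcp1 was higher in shMdk tumours by 0.63 ± 0.16 (adjusted p = 0.0169), a smaller fold change than that of the other 7 genes that passed. That call was lost without the 2 libraries high in Gm42418, where the difference was 0.53 ± 0.16 (adjusted p = 0.0528).

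Counted together, 4 of the 9 genes were higher in shMdk than in shCtrl tumours under IgG2a (Ptprc, Laptm5, Cd53 and Itgax) and 0 were lower, where 1.63% of all genes tested were called higher. Under anti-PD1 7 of 9 were higher, the same 4 with Itgam, Itgal and Coro1a, against 4.93% of all genes. With both antibodies averaged, 8 of 9 were higher, against 6.23% of all genes. Groups did not overlap for 5 of 9 genes under IgG2a (4.16% of all genes) and for 8 of 9 under anti-PD1 (8.23% of all genes), in each case with shMdk higher. Over all 8 tumours a side, 4 of 9 genes showed no overlap (1.56% of all genes). The median log2 fold change of the 9 genes was 2.20 under IgG2a and 2.35 under anti-PD1, while the median over all genes was -0.01 and -0.02.

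These counts were sensitive to the libraries that stood apart. Without the 5 libraries with a positive GC slope, 2 of the 9 genes passed under IgG2a, Ptprc and Laptm5, with 2 tumours a side. The log2 fold changes of the other pair called with all tumours were then 2.995 ± 0.75 for Itgax and 2.13 ± 0.53 for Cd53, against 2.94 ± 0.48 and 2.33 ± 0.34 with all tumours, and both had an adjusted p of 0.0917 with limma. Under anti-PD1, 6 of 9 passed without those 5 libraries, with Lcp1 gained. Itgam (3.09 ± 0.85, adjusted p = 0.0619) and Coro1a (1.60 ± 0.45, adjusted p = 0.0692) were lost there. Without the 2 libraries high in Gm42418, 5 of 9 passed under anti-PD1. Lost were Itgam, at 2.18 ± 0.66 (adjusted p = 0.0647) against 3.19 ± 0.84 with all tumours, and Coro1a, at 1.47 ± 0.47 (adjusted p = 0.0817) against 1.66 ± 0.45. Whether base composition or ribosomal reads take part in the hairpin effect was not tested beyond these fits.

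**Figure D2:**
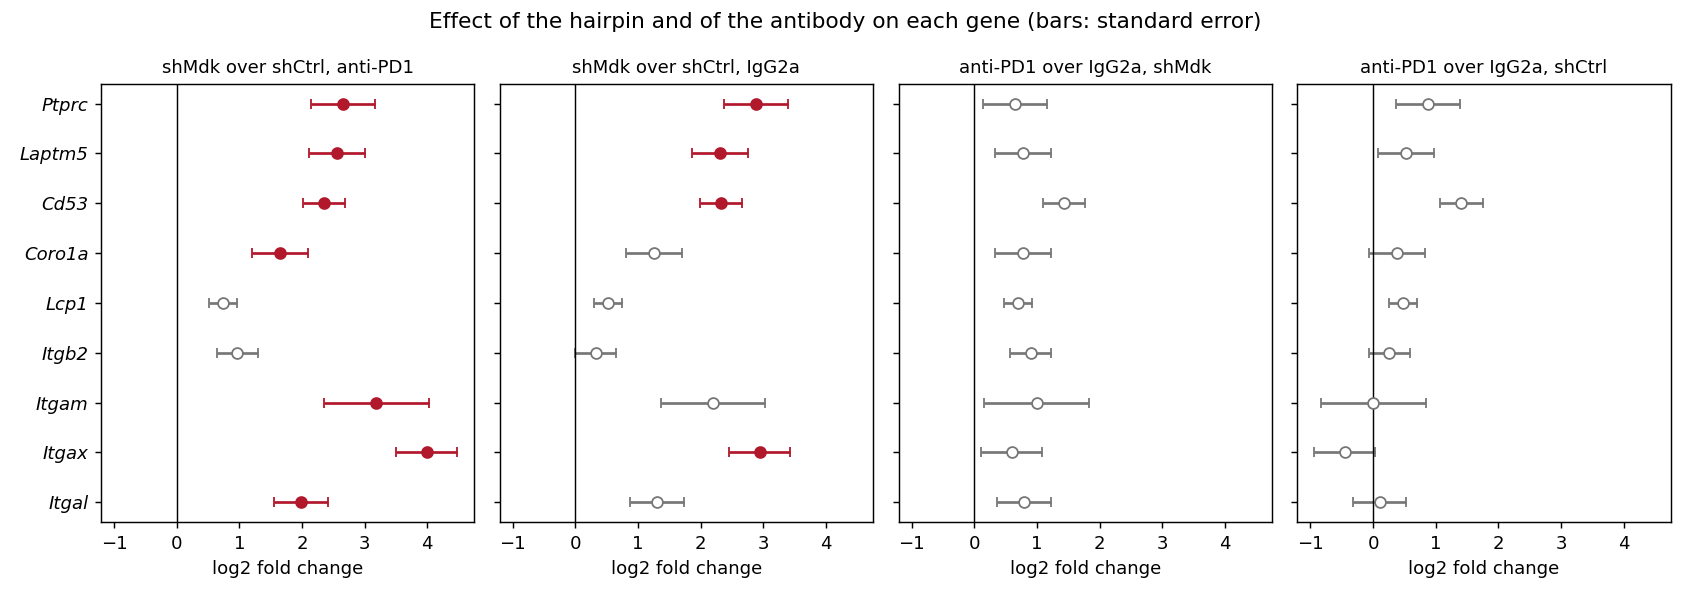
Log2 fold change (horizontal axis) of each of the 9 genes (rows) for the hairpin under anti-PD1 and under IgG2a and for the antibody in shMdk and in shCtrl tumours, from left to right; bars are standard errors and filled red points passed an adjusted p of 0.05. The hairpin effects reach 3.99 for Itgax, and none of the antibody effects within a line passed with limma, whose fits are drawn.

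Within a line, no member was called for anti-PD1 with limma. In shMdk tumours, 0 of the 9 genes passed with limma (0.0273% of all genes were called higher), while all 9 had a positive fold change, with a median of 0.78 against 0.03 over all genes. At an unadjusted p under 0.05, 3 of 9 were higher, Itgb2, Lcp1 and Cd53, as were 6.54% of all genes. Of the 9, edgeR called 0 and DESeq2 1, Cd53. In shCtrl tumours 0 of 9 passed with limma (0% of all genes), and 2 of 9 were higher at an unadjusted p under 0.05, Lcp1 and Cd53, as were 1.9% of all genes. There too edgeR called 0 and DESeq2 1, Cd53. The median there was 0.38 against 0.01 over all genes, and Itgax (-0.45 ± 0.48) had a negative difference.

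Cd53 had the largest antibody effect of the 9 genes in both lines. In shMdk tumours it averaged 205 ± 20.8 normalised counts under anti-PD1 and 77.04 ± 21.05 under IgG2a (SD, n = 4 each), without overlap, and the log2 fold change was 1.43 ± 0.34 (adjusted p = 0.134). In shCtrl tumours it averaged 44.4 ± 25.2 under anti-PD1 and 14.2 ± 2.84 under IgG2a, overlapping by 1 tumour, with 1.41 ± 0.34 (adjusted p = 0.798). DESeq2 called Cd53 in both lines (adjusted p = 0.00184 in shMdk and 0.0357 in shCtrl), and so did limma without the 2 libraries high in Gm42418 (adjusted p = 0.0465 in shMdk and 0.0479 in shCtrl).

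The antibody effect averaged over both lines was added as a comparison after the Cd53 values had been seen. There Cd53 was 1 of 7 genes called higher (0.0477% of all genes) and the only 1 of the 9, at 1.42 ± 0.24 (adjusted p = 0.0297). Lcp1 came next of the 9 by p, at 0.59 ± 0.16 (adjusted p = 0.198). The Cd53 call held in 4 of 16 fits that left out 1 tumour, those without shMdk IgG2a tumour 1, shCtrl anti-PD1 tumour 2 or 4 or shCtrl IgG2a tumour 4, with adjusted p-values of 0.00218 to 0.0989 over the 16, and it was lost without the 5 libraries with a positive GC slope, where its fold change was 1.41 and its adjusted p 0.565. Leaving out each tumour in turn kept its fold change between 1.26 and 1.60.

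With both interventions against neither, all 9 of 9 genes were higher in shMdk anti-PD1 than in shCtrl IgG2a tumours, where 6.39% of all genes were called higher. The groups did not overlap for any of the 9, as for 9.39% of all genes. The fold changes ran from 1.22 ± 0.22 for Lcp1 and 1.23 ± 0.33 for Itgb2 to 3.77 ± 0.34 for Cd53, or 13.6-fold (limma adjusted p = 0.00187, 0.0225 and 4.22e-06 in that order). The Itgb2 call held in 4 of 8 fits without 1 tumour (adjusted p = 0.0165 to 0.0848) and was lost without shMdk tumour 2 or 4 or shCtrl tumour 1 or 2. Without the 5 libraries with a positive GC slope, 7 of 9 passed. The Itgb2 difference was then 0.93 ± 0.39 (adjusted p = 0.255), and that of Itgal 1.65 ± 0.50 (adjusted p = 0.0986) against 2.09 ± 0.43 (adjusted p = 0.00426) with all tumours. The call of Itgam held in 5 of 8 (adjusted p = 0.0105 to 0.0627) and was lost without shMdk tumour 1 or shCtrl tumour 3 or 4.

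Whether the antibody acted differently in the 2 lines was tested as an interaction. None of the 9 genes passed with limma, edgeR or DESeq2, none had an unadjusted p under 0.05, and 0% of all genes were called, with 506 genes at an unadjusted p under 0.05. The estimates ran from -0.22 ± 0.73 for Ptprc to 1.05 ± 0.69 for Itgax in log2 units, positive for 8 of 9. Their standard errors, 0.31 for Lcp1 to 1.18 for Itgam, leave room for differences of either sign.

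The unequal fold changes were tested directly as ratios between 2 genes in the same tumour, which cancel a factor common to both genes. Of 10 ratios, 4 differed between the 8 shMdk and the 8 shCtrl tumours (two-sided exact permutation within antibody, 4900 arrangements, Benjamini-Hochberg over 50 tests). The log2 ratio of Lcp1 to Ptprc averaged 2.63 ± 0.50 in shMdk and 4.77 ± 1.24 in shCtrl tumours (SD, n = 8 each), a difference of -2.14 (exact permutation, adjusted p = 0.0136). That of Itgb2 to Ptprc averaged -0.34 ± 0.57 in shMdk and 1.78 ± 1.26 in shCtrl tumours, a difference of -2.12 (exact permutation, adjusted p = 0.0153). In shMdk tumours there were thus fewer Lcp1 and Itgb2 transcripts for each Ptprc transcript.

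The ratio of Coro1a to Ptprc averaged -2.36 ± 0.42 in shMdk and -1.05 ± 0.53 in shCtrl tumours, a log2 difference of -1.31 (exact permutation, adjusted p = 0.0136), and here the 2 lines did not overlap under either antibody. Between alpha chains, the ratio of Itgax to Itgal averaged 1.49 ± 0.91 in shMdk and -0.34 ± 0.78 in shCtrl tumours, a difference of 1.83 (exact permutation, adjusted p = 0.0136). Relative to CD11a transcripts, CD11c transcripts were thus more abundant in shMdk tumours. The ratio of Itgam to Itgal differed by 1.05 and did not pass (exact permutation, adjusted p = 0.338).

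The ratio of Laptm5 to Ptprc had the smallest standard deviation of the 10 in both lines, with 1.41 ± 0.26 in shMdk and 1.74 ± 0.31 in shCtrl tumours and a difference of -0.33 (exact permutation, adjusted p = 0.153). Itgam (-0.08), Cd53 (-0.43), Itgax (0.70) and Itgal (-1.13) relative to Ptprc did not pass (exact permutation, adjusted p = 0.924, 0.466, 0.168 and 0.1099 in that order). With 4 tumours a group the smallest exact p is 0.0286, and none of the ratios passed within 1 antibody or between antibodies. Without the 5 libraries with a positive GC slope the 4 differences were -2.62, -2.65, -1.30 and 1.80 in the order given above. With all tumours they were -2.14, -2.12, -1.31 and 1.83. None of the 4 passed there (exact permutation, adjusted p = 0.179, 0.179, 0.119 and 0.119 in that order). With 2 tumours a side under IgG2a fewer arrangements remain and the smallest possible p is larger. That fit therefore cannot decide whether the 4 calls hold. Without the 2 libraries high in Gm42418, Lcp1/Ptprc was at -1.95 (exact permutation, adjusted p = 0.0544) and Itgb2/Ptprc at -2.03 (exact permutation, adjusted p = 0.0612).

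**Figure D3:**
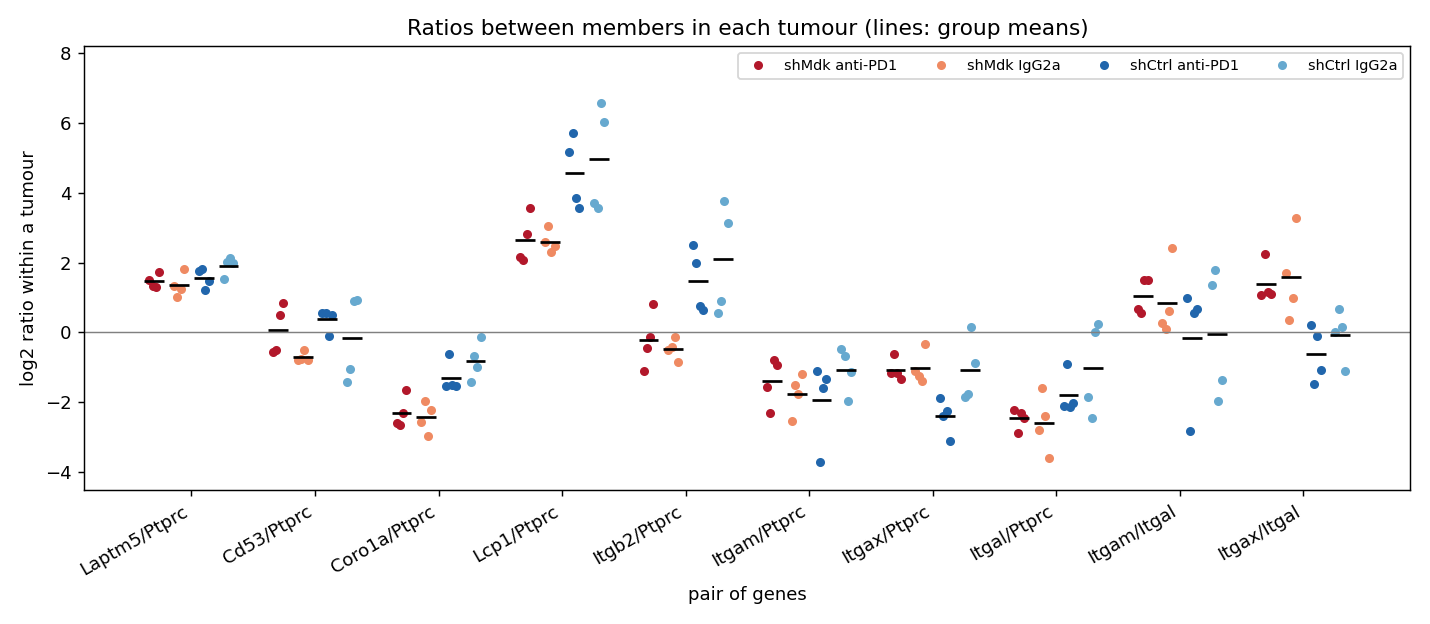
Log2 ratio within a tumour (vertical axis) for 10 pairs of genes (horizontal axis), with 1 point per tumour coloured by group and black lines at group means. Lcp1/Ptprc, Itgb2/Ptprc and Coro1a/Ptprc lie lower and Itgax/Itgal lies higher in the shMdk groups, while Laptm5/Ptprc differs by -0.33.

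As a plain gauge, the normalised counts of the 9 genes summed to 2647 ± 430 in shMdk anti-PD1, 1551 ± 387 in shMdk IgG2a, 1044 ± 156 in shCtrl anti-PD1 and 768 ± 138 in shCtrl IgG2a tumours (SD, n = 4 each), with no test of the sum. Lcp1 supplied 47.2% and 49.98% of that sum in the shMdk groups and 71.2% and 70.2% in the shCtrl groups, in the same order. Without Lcp1 and Itgb2 the other 7 genes summed to 1236 ± 355, 687 ± 211, 218 ± 112 and 143 ± 70.3 normalised counts in the 4 groups. The distance between the lines differed with the genes that were summed.

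Within a line, the tumours also differed among themselves, and the members did so together only in part. Relations with Ptprc were computed for 8 genes in each line over 8 tumours (log2 values, both antibodies pooled, two-sided exact permutation, Benjamini-Hochberg over 16 relations). Laptm5 followed Ptprc in both lines, with r = 0.93 and rho = 0.88 in shMdk tumours (exact permutation, adjusted p = 0.0118 and 0.0290) and r = 0.98 and rho = 0.98 in shCtrl tumours (adjusted p = 0.00159 and 0.00635), and r was 0.83 and 0.94 without the 2 tumours farthest from the median. Itgax followed it in shMdk tumours (r = 0.89, rho = 0.86, exact permutation, adjusted p = 0.0118 and 0.0343, r = 0.70 without 2 tumours). In shCtrl tumours r of Itgax was 0.43 and did not pass (rho = 0.33, exact permutation, adjusted p = 0.378 and 0.456), at levels of 1 to 11 reads per tumour. It was 0.79 there without the 2 farthest tumours, so the low r of Itgax depends on those.

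Coro1a followed Ptprc in shCtrl tumours (r = 0.88, rho = 0.88, exact permutation, adjusted p = 0.0118 and 0.0290, r = 0.83 without 2 tumours). In shMdk tumours rho of Coro1a passed at 0.90 (adjusted p = 0.0290) and r did not at 0.73 (exact permutation, adjusted p = 0.0997), and r was 0.39 without the 2 farthest tumours, so the linear relation rests on those. Itgam followed Ptprc in shCtrl tumours by r (0.85, adjusted p = 0.0280) but not by rho (0.81, exact permutation, adjusted p = 0.0581), with r = 0.85 without 2 tumours.

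No relation with Ptprc passed for Itgb2 or Lcp1 in shCtrl tumours, with r = -0.13 and rho = -0.33 for Itgb2 and r = -0.20 and rho = -0.26 for Lcp1 (exact permutation, adjusted p = 0.748, 0.456, 0.692 and 0.536 in that order). Without the 2 farthest shCtrl tumours r was 0.30 for Itgb2 and -0.01 for Lcp1. In shMdk tumours both were positive and did not pass either, with r = 0.58 and rho = 0.64 for Itgb2 and r = 0.59 and rho = 0.69 for Lcp1 (exact permutation, adjusted p = 0.1896, 0.171, 0.1896 and 0.159). These relations pool both antibodies, so a difference between antibody groups can enter r. Over all 16 tumours with group means subtracted, r with Ptprc was -0.12 for Itgb2 and -0.37 for Lcp1, with no test. It was then 0.31 for Itgal, 0.47 for Cd53, 0.70 for Itgax, 0.82 for Coro1a, 0.83 for Itgam and 0.95 for Laptm5. In the shCtrl IgG2a group, tumours 1 and 2 had more Ptprc and less Lcp1 and Itgb2 than tumours 3 and 4, and that first pair are the 2 libraries of the group with a positive GC slope. Without that pair, over 6 shCtrl tumours, r with Ptprc was 0.09 for Itgb2 and 0.11 for Lcp1, 0.99 for Laptm5, 0.90 for Coro1a and 0.85 for Itgam. Cd53 had r = 0.97 over those 6 tumours (exact permutation p = 0.00278, unadjusted) and r = 0.62 over all 8 (adjusted p = 0.1896). In shMdk tumours 5 libraries remain without those with a positive slope, and no correlation was computed over fewer than 6.

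**Figure D4:**
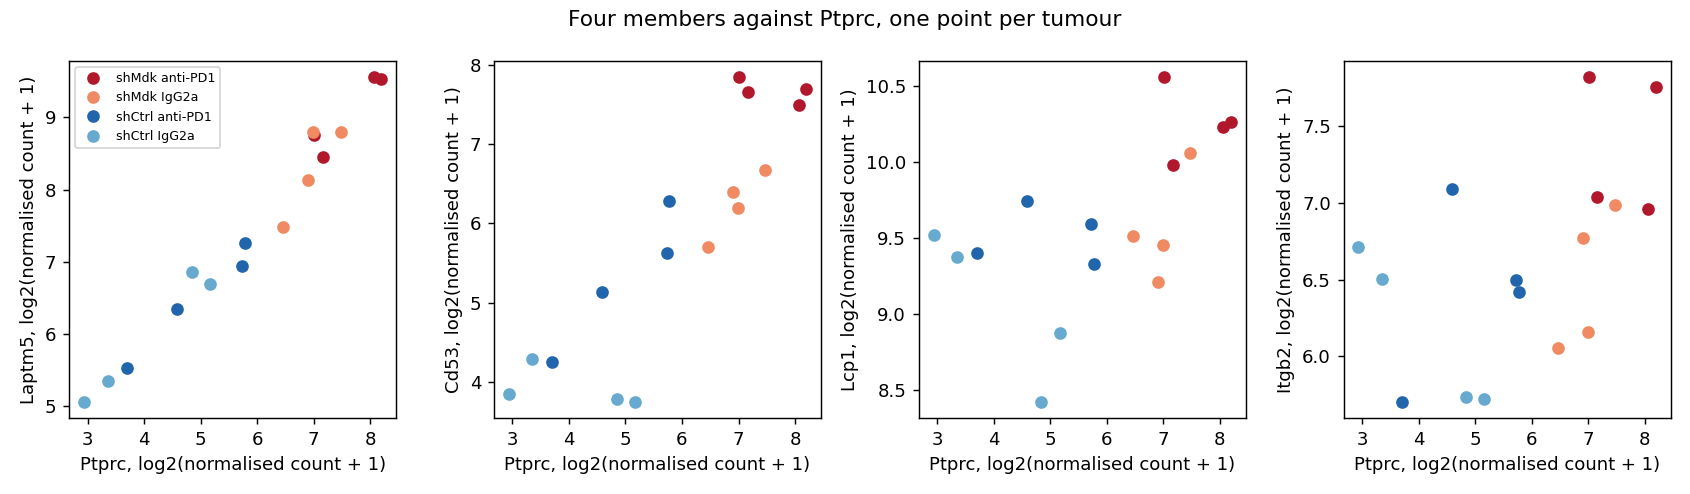
Log2(normalised count + 1) of Laptm5, Cd53, Lcp1 and Itgb2 (vertical axes) against that of Ptprc (horizontal axes), with 1 point per tumour coloured by group. Laptm5 is higher where Ptprc is higher in both lines (r = 0.93 in shMdk and 0.98 in shCtrl), while Lcp1 and Itgb2 show no such trend among the shCtrl tumours.

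By Pearson r over the 16 tumours with the mean of the standardised members, the most alike other genes were Tyrobp (0.978), AW112010 (0.970), Ctss (0.970), Ly6a (0.966) and Lilr4b (0.966), given as a ranking with no test. Tyrobp encodes the adaptor DAP12 of myeloid and NK receptors, and Ctss encodes cathepsin S, a lysosomal protease of antigen-presenting cells. Tyrobp was higher in shMdk tumours by 2.17 ± 0.38 (adjusted p = 0.00549) under IgG2a and 2.55 ± 0.38 (adjusted p = 0.000947) under anti-PD1. After the group means were subtracted, the most alike were Adgre1 (0.927), which encodes the macrophage marker F4/80, Cd40 (0.926), Atp11a (0.919) and Hmgb1-ps8 (0.911). For Ptprc alone the 3 most alike were Laptm5 (0.986), Cd52 (0.981) and Fcer1g (0.981), and within groups C1qa (0.955), Aif1 (0.952) and Laptm5 (0.946).

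Other genes of leukocytes in general were measured beside the members. Where a gene has 2 values below, the first is for shMdk against shCtrl under IgG2a and the second under anti-PD1. For scale against this list and those below, limma called 1.63% and 4.93% of all genes tested higher in these arms. The calls in these lists are from all tumours. Under IgG2a limma called 239 genes higher and 16 lower with all tumours. Without the 5 libraries with a positive GC slope, which leaves fewer tumours, it called 74 genes in that arm. At an unadjusted p under 0.05, in either direction, there were 1422 and 2617 of the 14672 genes. The median log2 fold change of the 21 other leukocyte genes tested was 1.63 and 2.04. Of these, 6 were higher in shMdk tumours under IgG2a and 15 under anti-PD1, and 0 were lower in either. Under IgG2a these included Cd52 (3.05 ± 0.47, adjusted p = 0.00333), a small glycoprotein of lymphocytes and macrophages, Selplg (2.67 ± 0.42, adjusted p = 0.00334), the P-selectin ligand, and Cybb (2.51 ± 0.50, adjusted p = 0.0118), the catalytic subunit of the phagocyte oxidase. Under anti-PD1 the largest were Il10ra (4.0003 ± 0.84, adjusted p = 0.00765), a chain of the IL-10 receptor, Ptprcap (3.16 ± 0.55, adjusted p = 0.00220), the CD45-associated protein, and Lsp1 (2.97 ± 0.59, adjusted p = 0.00569), a leukocyte actin-binding protein. Within a line, 0 of the 21 were called for anti-PD1 with limma. At an unadjusted p under 0.05 there were 2 in shCtrl and 5 in shMdk tumours, against 556 and 1826 of the 14672 genes. With edgeR 0 were called in either line, and with DESeq2 0 in shCtrl and 2 in shMdk.

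The machinery that switches beta2 integrins on or signals below them was higher in part. Of 17 genes tested, 7 rose under IgG2a and 9 under anti-PD1 in shMdk tumours and 0 fell, with medians of 0.83 and 1.16. Rassf5, which encodes the Rap1 effector RAPL, rose by 1.13 ± 0.25 (adjusted p = 0.0245) and 2.42 ± 0.25 (adjusted p = 7.76e-05) in those arms. Among the others, Lcp2 (SLP-76) rose by 2.54 ± 0.48 (adjusted p = 0.00891) under IgG2a, Syk by 1.38 ± 0.34 (adjusted p = 0.0443) under IgG2a and Fgr by 3.03 ± 0.62 (adjusted p = 0.00645) under anti-PD1. Fermt3, the gene of kindlin-3, averaged 59.997 ± 40.1 normalised counts in shMdk and 14.7 ± 10.8 in shCtrl tumours (SD, n = 8 each), with 2.31 ± 0.65 (adjusted p = 0.101) under IgG2a and 1.87 ± 0.65 (adjusted p = 0.115) under anti-PD1, neither of which passed, and 2.09 ± 0.46 (adjusted p = 0.00744) over both antibodies, which did.

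Of 8 genes for beta2 integrin ligands, 1 rose in shMdk tumours under IgG2a, 3 rose under anti-PD1 and 0 fell. Icam1, the inducible ligand of LFA-1 and Mac-1, rose by 0.99 ± 0.23 (adjusted p = 0.0311) and 1.14 ± 0.23 (adjusted p = 0.00559). Under anti-PD1, C3, the source of the complement fragment that Mac-1 and CD11c bind, rose by 2.98 ± 0.51 (adjusted p = 0.00220) and Icam2, a ligand on endothelium, by 0.73 ± 0.19 (adjusted p = 0.0255). Of 15 integrin genes outside the beta2 family, 1 rose under IgG2a, 4 rose under anti-PD1 and 0 fell, with medians of 0.23 and 0.33. Itgb7, a beta chain of lymphocyte homing receptors, rose by 3.36 ± 0.72 (adjusted p = 0.0195) and 2.82 ± 0.72 (adjusted p = 0.0263), but edgeR called 0 of the 15 under IgG2a. Itgb5 (1.99 ± 0.29, adjusted p = 0.000947) and Itga2 (1.34 ± 0.29, adjusted p = 0.00948) rose under anti-PD1. Itgb1, the beta chain of most other integrins, had 4168 ± 696 normalised counts in shMdk and 3668 ± 479.7 in shCtrl tumours and did not pass (0.04 ± 0.14, adjusted p = 0.983 and 0.32 ± 0.14, adjusted p = 0.234).

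Relatives of the members that other cells express were measured as well. Of 13 such paralogs tested, 1 rose in either arm, the coronin gene Coro2a, by 2.12 ± 0.41 (adjusted p = 0.0108) and 2.46 ± 0.41 (adjusted p = 0.00194), and the medians were 0.00 and 0.20. The broadly expressed coronin Coro1c (0.26 ± 0.17 and 0.10 ± 0.17), the plastin Pls3 (-0.10 ± 0.16 and 0.36 ± 0.16) and the LAPTM relatives Laptm4a (0.14 ± 0.18 and 0.49 ± 0.18) and Laptm4b (0.12 ± 0.22 and 0.27 ± 0.22) had small differences that did not pass. Of 18 tetraspanins other than Cd53, 0 passed with limma, edgeR or DESeq2 in either arm, with 2 at an unadjusted p under 0.05 in each. Among these, Cd37, which leukocytes also express, had -0.03 ± 0.18 (adjusted p = 0.989) and 0.46 ± 0.18 (adjusted p = 0.166), and Cd63, a lysosomal tetraspanin abundant in melanoma, -0.35 ± 0.18 (adjusted p = 0.609) and -0.31 ± 0.18 (adjusted p = 0.419).

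Around CD45 as a phosphatase, 2 of 15 genes for its substrates and partners rose in shMdk tumours under IgG2a, 4 rose under anti-PD1 and 0 fell, with medians of 0.21 and 0.45. Cd22, an inhibitory receptor of B cells, rose by 2.90 ± 0.70 (adjusted p = 0.0395) and 2.47 ± 0.70 (adjusted p = 0.0433), and Ptpn22, a phosphatase that restrains T cell receptor signals, by 2.14 ± 0.38 (adjusted p = 0.00575) and 1.36 ± 0.38 (adjusted p = 0.0401). Of 18 leukocyte actin regulators beside Coro1a and Lcp1, 6 rose under IgG2a and 9 under anti-PD1 and 0 fell, with medians of 1.02 and 1.25. They included Dock2 (3.00 ± 0.58, adjusted p = 0.0105), an activator of Rac, under IgG2a, Myo1f (3.35 ± 0.62, adjusted p = 0.00352), a myosin of myeloid cells, under anti-PD1, and in both arms Aif1 (2.84 ± 0.62, adjusted p = 0.0214 and 2.86 ± 0.62, adjusted p = 0.00942), the macrophage protein IBA1, and Cytip (2.30 ± 0.56, adjusted p = 0.0454 and 3.34 ± 0.56, adjusted p = 0.00199), which limits LFA-1 adhesion.

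Markers of single cell types moved beside the members, and their part in the members' changes was not tested. Macrophage and monocyte markers rose in shMdk tumours in 5 of 12 cases under IgG2a and in 10 of 12 under anti-PD1, among them Ly6c2 (2.84 ± 0.55, adjusted p = 0.0105 and 4.12 ± 0.55, adjusted p = 0.000450) and Ccr2 (2.73 ± 0.64, adjusted p = 0.0342 and 3.73 ± 0.64, adjusted p = 0.00210); Ly6c2 can share reads with other Ly6c genes. Their summed normalised count was 3120 to 7087 in shMdk anti-PD1, 1473 to 3976 in shMdk IgG2a, 507 to 1553 in shCtrl anti-PD1 and 491 to 1091 in shCtrl IgG2a tumours, and no marker was at 0 throughout a group. T cell markers rose in 4 of 7 under anti-PD1, such as Cd3d (3.61 ± 0.58, adjusted p = 0.00144), and in 0 of 7 with limma under IgG2a (5 at an unadjusted p under 0.05, edgeR 0, DESeq2 1), and summed to 98.3 to 289, 77.8 to 125, 22.1 to 52.1 and 9.51 to 49.5 in the same order of groups.

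Neutrophil markers passed with limma in 1 of 7 under anti-PD1 (Retnlg, 2.92 ± 0.63, adjusted p = 0.00918). There 5 of 7 had an unadjusted p under 0.05, edgeR and DESeq2 each called 2 higher, and the median log2 fold change was 2.23. Under IgG2a 0 of 7 passed with limma, edgeR or DESeq2, with 0 at an unadjusted p under 0.05 and a median of -0.21. Of the dendritic cell markers 1 of 4 passed under anti-PD1 (Batf3, 1.89 ± 0.38, adjusted p = 0.00566) and 0 of 4 under IgG2a with any of these tools, with 1 at an unadjusted p under 0.05. Markers of B cells, NK cells, mast cells and red cells gave 0 calls with limma in either arm. Platelet markers gave 1 of 3 under anti-PD1, Pf4, and which cells gave its reads was not tested. Pf4 averaged 871 normalised counts in shMdk anti-PD1 and 194 in shCtrl anti-PD1 tumours. Itga2b of the same list averaged 12.4 and 8.31 and was not called. At an unadjusted p under 0.05 under IgG2a and anti-PD1, B cell markers had 1 and 1 of 3 and the NK cell marker 1 and 0 of 1. The mast cell marker had 0 and 1 of 1 and red cell markers 0 and 0 of 5. Of 6 mast cell and basophil markers listed, only 1 was in the expression table, Kit, and which cells gave its reads was not tested. Kit was lower in shMdk tumours under anti-PD1 (log2 fold change -1.37). It averaged 26.1 ± 10.2 normalised counts in shMdk anti-PD1 and 69.5 ± 29.7 in shCtrl anti-PD1 tumours (SD, n = 4 each). Of the B cell, NK cell, mast cell and red cell markers, edgeR called none in either arm. DESeq2 called 2 red cell markers lower under anti-PD1 and no other marker of these 4 lists. Under anti-PD1 edgeR and DESeq2 each called 1 platelet marker and 1 dendritic cell marker higher.

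Markers of tissue cells were measured too, and their part in the members' changes was likewise not tested. Under anti-PD1, 3 of 5 endothelium and 3 of 5 fibroblast markers rose in shMdk tumours, such as Cdh5 (1.03 ± 0.30, adjusted p = 0.0495) and Col1a1 (2.13 ± 0.53, adjusted p = 0.0236), with 0 of 5 each under IgG2a by limma, edgeR or DESeq2 and 0 at an unadjusted p under 0.05. The 8 melanoma markers gave 0 calls in either arm with the same tools, and 0 at an unadjusted p under 0.05, and summed to 114062 to 149812 in shMdk anti-PD1, 131996 to 153063 in shMdk IgG2a, 140632 to 190408 in shCtrl anti-PD1 and 157860 to 192287 in shCtrl IgG2a tumours. Red cell markers summed to 574472 in shCtrl anti-PD1 tumour 2, the library with most Gm42418 and with the least Ptprc of its group.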

How the data were processed

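Per the labels' protocols, 500 ng of total RNA per tumour (RNA integrity 5.8 to 9.2, mean 8.6) went into a stranded library kit that reads transcripts at their polyadenylated 3′ end. Reads were handled with TopHat2 2.0.10, FastQC 0.11.0, SAMtools 0.1.19, Bowtie 1.0.0, DESeq2 and HTSeq on GRCm38 (mm10), per the submitters' processing notes; the gene annotation is not given in the sources used here. The values deposited by the authors are normalised signal, read counts over a DESeq2 size factor. Every value (100%) was a whole multiple of 1 read within 0.001, so reads were recovered, and size factors computed from them matched within 1e-06 in 16 of 16 tumours. Unused columns of per-sample values: 0.

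The main test was limma 3.58.1 (R 4.3.3, trended variances) on log2(normalised count + 1) for the 14672 genes averaging at least 5, with 16 tumours, 12 residual degrees of freedom, Benjamini-Hochberg adjustment and a threshold of 0.05. Adding 1 understates changes of low genes. The fit was tested on simulated data. Alternatives were pseudocounts of 0.5 and 5, no filter or a mean of at least 20, TMM scaling, no variance trend, only the groups compared, edgeR 4.0.16 and DESeq2 1.42.0 on recovered reads, and leaving out each tumour. Leaving out the libraries that stood apart, and the antibody effect over both lines, were added after the data had been seen. Ratios and correlations used scipy 1.17.1. GC slopes used the last 500 bases of each gene's longest GENCODE M21 transcript (14621 genes matched).

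Groups follow the labels, which describe separate tumours and give no replicate numbers; numbers here follow accession order and pair nothing. The members and gene lists were chosen with earlier results of these data known. Beside the members, genes are named per list and comparison by rule (up to 3 largest rises and 1 largest fall among those that passed, or the smallest p where none did), with a fixed set (among them Mdk, Ptprcap, Fermt3, Itgb1, Icam1, Pls3, Coro1c, Laptm4a, Laptm4b, Cd63 and Cd37) and the genes most alike in pattern; some genes the rule names are not reported here. Floors cover counting error only. The anti-PD1 dose is in mg/kg in the labels but in g/kg in the design text.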

Additional observations from a re-analysis of the deposited data

Results flagged for a closer look

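In 2 of 36 combinations of a gene and a group, 1 tumour stood apart from the other 3 by Dixon's ratio, and in 6 of 40 combinations of a ratio and a group. Chance alone does this in about 1 in 20 groups. Itgam had 54.7 normalised counts in shMdk IgG2a tumour 4, with the next at 34.1. Cd53 had 18.5 normalised counts in shCtrl IgG2a tumour 4, with the next at 13.3.

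Of the ratios, 3 concern shCtrl anti-PD1 tumour 2, the library with the fewest reads, 4.47% of them from Gm42418, and 8 reads of Ptprc. There the log2 ratio of Itgal to Ptprc was -0.89 (next -2.02), that of Coro1a to Ptprc was -0.61 (next -1.51), and that of Itgam, at 0 reads, to Itgal was -2.81 (next 0.54). The log2 ratio of Cd53 to Ptprc was -0.50 in shMdk IgG2a tumour 3 (next -0.77) and -0.10 in shCtrl anti-PD1 tumour 3 (next 0.51). The log2 ratio of Itgax to Itgal was 2.24 in shMdk anti-PD1 tumour 2 (next 1.16). The cause of these values was not tested.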

How the results depend on the processing

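No paired analysis was possible because the labels carry no replicate numbers. The fold changes of single genes are on the log2 scale, and the cause of each change was not tested.

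Shifts by setting were as follows. DESeq2 called 449 genes for the hairpin under IgG2a and 1310 under anti-PD1. For anti-PD1 in shCtrl, the count as reported was 0 of the 9 genes and 0 of all genes; DESeq2 gave 1 and 7, and leaving out the 2 libraries high in Gm42418 gave 1 and 3. For anti-PD1 in shMdk, it was 0 of the 9 and 5 of all genes (4 higher and 1 lower). All-gene counts there were 3 with a pseudocount of 0.5, without a filter or with TMM scaling, 27 with a pseudocount of 5, 0 with no variance trend, 25 with only the 2 groups, 8 with edgeR, 244 with DESeq2, 11 without the Gm42418 libraries and 1 without the 5 libraries with a positive GC slope, and 1 of the 9 was called with only the 2 groups, with DESeq2 and without the Gm42418 libraries. For anti-PD1 over both lines (7 genes), counts were 12 with no variance trend, 11 with edgeR, 220 with DESeq2 and 39 without the Gm42418 libraries.

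Without the GC-slope libraries, which leaves fewer tumours, the hairpin effect under IgG2a had 2 of the 9 and 74 genes, over both antibodies 745 genes, both interventions against neither 564 genes, and anti-PD1 over both lines 0 of the 9 and 0 genes. Signs reversed there for Itgb2 under IgG2a (-0.085), for Itgb2 (-0.18) and Itgal (-0.10) under anti-PD1 in shCtrl, and in the interaction for Itgam (-0.27), Laptm5 (-0.54) and Coro1a (-0.53); none of these was called. The interaction of Cd53 reversed with edgeR (-0.26), DESeq2 (-0.25) and without the Gm42418 libraries (-0.19), as did that of Itgam without them (-0.10), and Itgam under anti-PD1 in shCtrl with a pseudocount of 0.5 (-0.12).

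Of the ratios, Itgb2/Ptprc (-2.65), Lcp1/Ptprc (-2.62), Coro1a/Ptprc (-1.30) and Itgax/Itgal (1.80) did not pass without the GC-slope libraries. The smallest possible p is larger there, so that fit cannot decide whether these calls hold. Without the Gm42418 libraries, Itgb2/Ptprc (-2.03) and Lcp1/Ptprc (-1.95) did not pass. Itgal/Ptprc passed with a pseudocount of 5 (-1.24), and the uncalled Itgam/Ptprc turned positive with a pseudocount of 0.5 (0.10) and without the GC-slope libraries (0.057).

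Leaving out 1 tumour each gave 136 to 271 genes for the hairpin under IgG2a, lowest without shMdk tumour 3, and 443 to 858 under anti-PD1, lowest without shMdk tumour 1, against 239 higher with 16 lower and 724 higher with 146 lower over all tumours. It gave 955 to 1472 for both interventions against neither (938 higher and 509 lower over all tumours), 0 to 2 and 0 to 12 for anti-PD1 in shCtrl and in shMdk, and 4 to 38 genes and 0 to 1 of the 9 for anti-PD1 over both lines, where the 38 came without shCtrl anti-PD1 tumour 2. Uncalled values changed sign for anti-PD1 in shCtrl at Itgam (-0.68 to 1.01), Itgal (-0.12 to 0.33) and Coro1a (-0.057 to 0.69), over both lines at Itgax (-0.10 to 0.28), in the interaction at Ptprc (-0.64 to 0.16), Itgam (-0.012 to 1.68), Laptm5 (-0.087 to 0.55) and Cd53 (-0.34 to 0.35), and in the ratio Itgam/Ptprc (-0.37 to 0.076). Itgal/Ptprc (-1.37 to -0.92) passed without shCtrl IgG2a tumour 2 and Itgax/Ptprc (0.57 to 0.90) without shCtrl IgG2a tumour 3. With means of at least 20, Itgal was not tested. Depth limits Itgax, Itgal, Itgam and Coro1a most, with 52 to 95 reads each over the 8 shCtrl tumours.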
